A study of Mus musculus with 11 samples.

Results

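The Wnt pathway genes described here are the frizzled receptors and their partners, the destruction complex, the Dishevelled proteins, beta-catenin and its regulators, and the TCF factors with their TLE corepressors, as they were measured in mouse ovarian granulosa cells. The list was given by name and held 44 genes, and all 44 were found among the 24809 gene IDs of the RNA table and the 24541 of the H3K4me3 table. Granulosa cells came from C57BL/6 mice treated with equine chorionic gonadotropin (eCG) for 48 h or from untreated mice (0 h). eCG, a gonadotropin of the mare, acts in mice much like follicle-stimulating hormone (FSH), and FSH is the name some labels give to the treatment. RNA was measured in 3 libraries at 48 h and 3 at 0 h, labelled postnatal day 21 with cells collected by puncturing follicles. By ChIP-seq, the promoter-associated mark H3K4me3 was measured in 2 libraries at 48 h and 2 at 0 h, for which no age is labelled. There was no untreated group collected at 48 h, so treatment and elapsed time cannot be told apart, and puncture collects whatever cells a follicle releases. The series' design text calls the libraries of a group biological replicates and does not say how many animals each holds.

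In canonical Wnt signalling, a Wnt ligand binds a frizzled receptor together with Lrp5 or Lrp6, Dishevelled is recruited, and the complex of Axin, Apc and glycogen synthase kinase that marks beta-catenin for destruction is held back. Beta-catenin then enters the nucleus, displaces TLE corepressors from TCF factors and turns on target genes, several of which (Axin2, Nkd1, Rnf43, Znrf3) feed back to dampen the pathway. In granulosa cells beta-catenin is known as a partner of steroidogenic factor 1 at the aromatase gene, and mice without Fzd4 have a defect of the corpus luteum.

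In RNA, 3 frizzled receptors, their co-receptor Lrp5, beta-catenin and 2 TLE corepressors were higher at 48 h, and 2 Dishevelled genes, 2 TCF factors, the receptor Ror1 and 5 inhibitors of the pathway were lower. Of the 43 members that passed the filter on low counts, 7 rose (Fzd1, Fzd2, Fzd4, Lrp5, Ctnnb1, Tle2 and Tle3), 10 fell (Ror1, Rnf43, Dvl1, Dvl3, Axin2, Dact1, Dact3, Nkd1, Tcf7l1 and Tcf7l2) and 26 did not pass. The test was edgeR's quasi-likelihood test, a gene was called at a Benjamini-Hochberg adjusted p under 0.05 over all genes tested, and Fzd10 (44 RNA counts over all libraries) was not tested. Among all 14401 genes tested, 16% were called higher and 15.8% lower (31.8% in either direction), so the members' share of rises (16.3%) lay at the background and their share of falls (23.3%) somewhat above it. Their median log2 fold change (48 h over 0 h throughout) was 0.09, against -0.03 over all genes tested. Libraries of the groups did not overlap for 26 members (60.5%), against 47.9% of all genes.

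**Figure D1:**
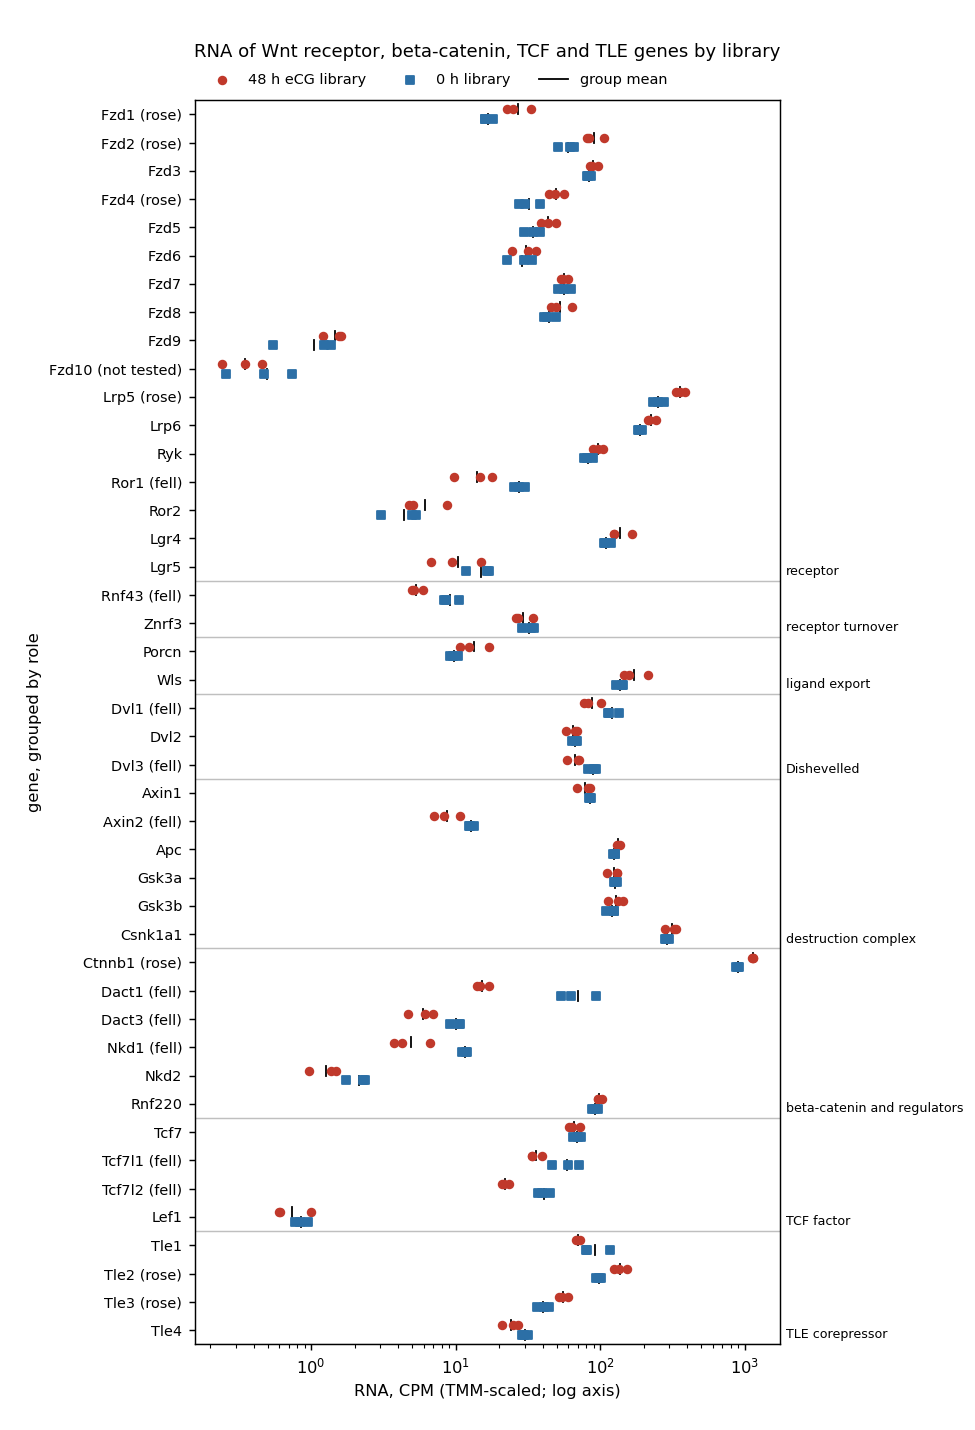
RNA level of each of the 44 genes in every library, in normalised read counts (CPM, TMM-scaled, log axis), grouped by role; red circles are the 3 libraries at 48 h, blue squares the 3 at 0 h and vertical lines the group means. Dact1 shows the widest gap between the groups, with 14.0 to 16.9 CPM at 48 h and 53.3 to 93.2 CPM at 0 h, and most destruction complex genes have groups that overlap.

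In H3K4me3, 6 of 44 members rose (Rnf220, Tle2, Tle3, Fzd9, Axin2 and Ctnnb1), 3 fell (Dact1, Rnf43 and Ror1) and 35 did not pass. Rises were 13.6% of the members, against 6.35% of the 24476 genes tested, and falls 6.82%, against 2.08%. In either direction 20.5% of the members were called, against 8.42% of all genes. The genes of the H3K4me3 table include 5129 with no RNA count. Members and all genes were not matched for their level of the mark, which affects how many can pass. Libraries of the groups did not overlap for 23 members (52.3%), against 49.3% of all genes. The median log2 fold change was 0.10 over the members and -0.0014 over all genes. Of the 2 H3K4me3 libraries at 48 h, replicate 1 was the higher at 31 of the 44 members, a count not made over all genes. With 2 libraries a group, standard errors (SE) and p-values rest on variation shared across genes. The window counted for each gene is not given in the sources used here, so values are given as the H3K4me3 count of a gene.

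The sequences before the listed start sites are shown for 5 members, those with the 4 largest H3K4me3 differences (Rnf220, Tle2, Tle3 and Dact1) and Axin2, whose RNA and mark were called in opposite directions. Whether these bases lie in the windows that were counted is not known. Each is the 250 bases before a start in RefSeq (build GRCm38.p6), 5′ to 3′ on the gene's strand. Capitals mark the GC box (GGGCGG on either strand) and TGACG, the part of a cAMP response element.
Tle2, chr10:81575037-81575286, plus strand: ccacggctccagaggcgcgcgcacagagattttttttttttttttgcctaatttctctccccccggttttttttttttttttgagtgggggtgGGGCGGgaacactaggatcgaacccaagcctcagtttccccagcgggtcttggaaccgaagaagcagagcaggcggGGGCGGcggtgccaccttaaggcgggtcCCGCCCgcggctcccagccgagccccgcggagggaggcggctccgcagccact
Tle3, chr9:61372116-61372365, plus strand: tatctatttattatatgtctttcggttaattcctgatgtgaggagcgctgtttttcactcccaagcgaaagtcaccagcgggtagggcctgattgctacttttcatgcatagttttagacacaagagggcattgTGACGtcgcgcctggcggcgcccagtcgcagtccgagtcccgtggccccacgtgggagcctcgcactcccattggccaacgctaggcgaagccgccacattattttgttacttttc
Rnf220, chr4:117375462-117375711, minus strand: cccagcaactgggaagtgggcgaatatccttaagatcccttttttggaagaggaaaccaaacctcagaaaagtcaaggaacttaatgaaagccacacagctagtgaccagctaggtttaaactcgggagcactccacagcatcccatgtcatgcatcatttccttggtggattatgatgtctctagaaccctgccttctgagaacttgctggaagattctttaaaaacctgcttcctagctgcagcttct
Dact1, chr12:71309634-71309883, plus strand: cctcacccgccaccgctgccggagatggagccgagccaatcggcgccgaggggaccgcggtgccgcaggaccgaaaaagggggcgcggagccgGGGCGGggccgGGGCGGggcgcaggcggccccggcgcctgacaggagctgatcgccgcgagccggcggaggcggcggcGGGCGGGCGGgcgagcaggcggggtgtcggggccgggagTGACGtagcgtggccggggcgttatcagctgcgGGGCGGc
Axin2, chr11:108920099-108920348, plus strand: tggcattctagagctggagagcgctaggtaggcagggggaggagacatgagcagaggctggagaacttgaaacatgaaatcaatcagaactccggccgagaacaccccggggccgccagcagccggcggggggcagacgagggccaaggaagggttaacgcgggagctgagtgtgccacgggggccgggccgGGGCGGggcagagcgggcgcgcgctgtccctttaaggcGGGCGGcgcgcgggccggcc
Dact1 is the richest of the 5 in CG dinucleotides, with 41 in 250 bases and 5 GC boxes, and Rnf220 the poorest, with 2 and none. The Dact1 start is the first base of its gene's span, while the starts shown for Rnf220 (span chr4:117271463-117497052), Axin2 (chr11:108917828-108950783), Tle2 (chr10:81574739-81592581) and Tle3 (chr9:61372326-61418497) lie inside theirs. RefSeq starts were at hand for 32 of the 44 members, 40 starts in all, with a median GC content of 65.2% and 18 CG dinucleotides, against 52.4% and 6 over 32851 starts of all genes. The GC box stood in 72.5% of the members' windows, against 32.7% of all windows, and TGACG in 20%, against 17.8%. The GC box is made of G and C alone, and the windows compared were not matched for GC content. The TCF motif (CTTTGAA or CTTTGAT) was found in 2.5%, at Gsk3a alone, against 7.48% of all windows. The whole cAMP response element (TGACGTCA, which contains TGACG) and the steroidogenic factor 1 motif (CAAGGTCA or CAAGGCCA) were found in 0 of the 40 windows, against 1.55% and 3.28% of all windows. Both strands were searched.

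Among the frizzled receptors, which bind Wnt ligands, 3 of 9 tested rose and 0 fell. Counts within a family, here and below, are to be read beside the 16% of all genes called higher and 15.8% called lower in RNA. No family was tested against other genes. Fzd1 had 33.3, 25.0 and 22.7 CPM in the 48 h libraries, against 16.1, 15.9 and 18.05 CPM in the 0 h libraries. Every 48 h library lay above every 0 h library, and the log2 fold change was 0.69 ± 0.15 (SE, n = 3 per group, adjusted p = 0.00877). Fzd2 had 107, 83.2 and 81.3 CPM at 48 h, against 65.7, 51.1 and 62.3 CPM at 0 h (log2 0.60 ± 0.13, adjusted p = 0.0101). Fzd4, a receptor for Norrin as well as for Wnt ligands, had 56.4, 48.8 and 44.0 CPM at 48 h, against 30.3, 27.6 and 38.2 CPM at 0 h (log2 0.64 ± 0.14, adjusted p = 0.0101). The groups did not overlap for Fzd2 or Fzd4 either. The span of Fzd4 overlaps Tmem135, whose reads may not be told apart where strand was not used. Tmem135 had a mean of 1339 RNA reads a library, against 471 to 1221 for Fzd4.

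Fzd5 just missed the threshold, with 49.1, 43.3 and 39.0 CPM at 48 h, against 34.5, 29.7 and 38.1 CPM at 0 h (log2 0.36 ± 0.12, adjusted p = 0.0510). It passed without 0 h replicate 3 (adjusted p = 0.0479) or 48 h replicate 3 (0.0442), with the size factors of DESeq2 (0.0472) and with DESeq2 itself (0.0351). Under the other alternatives Fzd5 did not pass. Its log2 fold change was 0.19 with total counts as the only scaling (adjusted p = 0.201) and 0.28 without 0 h replicate 2 (0.151). Fzd7 had 60.2, 55.1 and 53.6 CPM at 48 h, against 56.1, 51.0 and 62.5 CPM at 0 h, and its groups overlapped, as did those of Fzd3, Fzd6, Fzd8 and Fzd9. Fzd9 and Fzd10 stood at no more than 1.61 and 0.741 CPM in any library.

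The co-receptor Lrp5, which pairs with frizzled receptors, had 386, 357 and 336 CPM at 48 h, against 233, 251 and 275 CPM at 0 h (log2 0.51 ± 0.10, adjusted p = 0.00651), with no overlap. Its relative Lrp6 had 242, 218 and 213 CPM at 48 h, against 182, 187 and 196 CPM at 0 h. Lrp6 was higher in all 48 h libraries and did not pass (log2 0.25 ± 0.09, adjusted p = 0.0590), although it passed with the size factors of DESeq2 (0.0487) and with DESeq2 itself (0.0179). Lgr4, a receptor for R-spondins, likewise had every 48 h library above the 0 h libraries (165, 124 and 125 CPM, against 118, 106 and 108 CPM) and did not pass (adjusted p = 0.0783), except with DESeq2 (0.0461). With total counts as the only scaling the log2 fold change was 0.08 for Lrp6 (adjusted p = 0.502) and 0.15 for Lgr4 (0.323).

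Ror1, a receptor tyrosine kinase of non-canonical Wnt signalling (chr4:100095791-100444806), moved the other way. It had 17.9, 14.6 and 9.67 CPM at 48 h, against 30.1, 27.4 and 25.3 CPM at 0 h (log2 -0.96 ± 0.19, adjusted p = 0.00654). H3K4me3 at Ror1 was 44.2 and 41.6 CPM at 48 h, against 53.2 and 62.2 CPM at 0 h (log2 -0.42 ± 0.08, adjusted p = 2.10e-04), so both assays were lower with no overlap. Without H3K4me3 0 h replicate 2 the H3K4me3 fall at Ror1 did not pass (log2 -0.31, adjusted p = 0.0541). Its relative Ror2 (8.66, 4.76 and 5.05 CPM at 48 h, against 3.02, 5.29 and 4.96 CPM at 0 h) and the pseudokinase receptor Ryk had overlapping RNA groups.

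Lgr5, an R-spondin receptor and a marker of stem cells in several epithelia, had 14.95, 9.44 and 6.70 CPM at 48 h, against 11.8, 16.4 and 16.9 CPM at 0 h. The groups overlapped, as 48 h replicate 1 lay above 0 h replicate 1, and Lgr5 did not pass (log2 -0.54 ± 0.27, adjusted p = 0.156). Without 48 h replicate 1 it fell by 0.87 on the log2 scale (adjusted p = 0.0157). With any other library left out Lgr5 did not pass, with log2 fold changes of -0.68 to -0.29 (adjusted p = 0.117 to 0.436).

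Markers of other cells differed between libraries, and 48 h replicate 1 stood apart in several lists. The summed level of 13 endothelial markers was 802 CPM in that library and 259 and 322 CPM in the other 48 h libraries, against 133 to 140.3 CPM at 0 h, and 12 of the 13 markers rose and 0 fell. The 11 theca and stroma markers (2 rose, 3 fell) summed to 4588 CPM there and 1889 and 1857 CPM in the other 48 h libraries, against 1912 to 2375 CPM at 0 h. Oocyte markers (5 of 13 tested fell, 0 rose) summed to 124 CPM there and 46.6 and 45.9 CPM in the other 48 h libraries, against 122 to 141 CPM at 0 h. Smooth muscle and pericyte markers (1 of 9 rose, 0 fell) summed to 510 CPM there and 215 and 265 CPM in the other 48 h libraries, against 322 to 355 CPM at 0 h. Red cell markers were higher in every 48 h library and highest in replicate 3, with 544, 164 and 685 CPM in 48 h replicates 1, 2 and 3, against 68.5 to 129 CPM at 0 h, and all 3 that were tested rose. The 14 granulosa markers summed to 55555 to 57524 CPM at 48 h and 23647 to 29818 CPM at 0 h, and 10 rose and 2 fell. As most of these markers changed themselves, their sum does not measure the share of granulosa cells. In 27 of 43 tested members 48 h replicate 1 was the highest 48 h library, a count that was not made over all genes. Without 48 h replicate 1, all 7 rises and all 10 falls passed, with log2 fold changes of 0.52 for Fzd1, 0.46 for Fzd2, 0.54 for Fzd4 and 0.45 for Lrp5. Of 9 surface epithelium markers 1 fell and 0 rose in RNA, with overlapping sums of 175 to 270.3 CPM at 48 h and 166 to 270.5 CPM at 0 h. Of 10 immune markers tested in RNA 0 rose and 0 fell. In H3K4me3, 4 of 9 surface epithelium markers fell and 0 rose. Their summed levels were 103 and 106 CPM at 48 h, against 135 and 126 CPM at 0 h. Of the endothelial, oocyte, immune and red cell markers 0 passed in the mark, and of the theca and the smooth muscle markers 1 each fell. Of the 14 granulosa markers 7 rose and 2 fell in the mark. The part of other cell types in these differences was not tested, and in bulk RNA fewer cells of a type and less RNA per cell cannot be told apart.

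Of the membrane ubiquitin ligases that remove frizzled receptors from the surface, Rnf43 (chr11:87663087-87735539) fell in both assays. Its RNA was 5.90, 5.001 and 5.14 CPM at 48 h, against 8.62, 10.5 and 8.28 CPM at 0 h (log2 -0.78 ± 0.17, adjusted p = 0.00956). Its H3K4me3 was 42.9 and 51.3 CPM at 48 h, against 69.5 and 62.5 CPM at 0 h (log2 -0.49 ± 0.08, adjusted p = 2.07e-05). The RNA fall was narrowly lost without 48 h replicate 2 (adjusted p = 0.0501), and the H3K4me3 fall without 0 h replicate 1 (0.105). Znrf3, its relative, had overlapping groups in both assays, with 34.2, 26.1 and 27.0 CPM of RNA at 48 h, against 28.7, 33.2 and 34.9 CPM at 0 h. The genes for Wnt secretion, Porcn, which attaches the lipid to Wnt proteins, and Wls, which carries them to the surface, had higher RNA in every 48 h library and did not pass (adjusted p = 0.101 and 0.107).

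Of the Dishevelled genes, whose proteins pass the signal from the receptors, 2 of 3 fell in RNA. Dvl1 had 102, 82.6 and 77.9 CPM at 48 h, against 113, 115 and 135 CPM at 0 h (log2 -0.47 ± 0.12, adjusted p = 0.0183). Dvl3 had 59.1, 70.7 and 71.7 CPM at 48 h, against 82.8, 90.3 and 93.9 CPM at 0 h (log2 -0.41 ± 0.10, adjusted p = 0.0139). Dvl2 had overlapping groups, at 58.2, 68.7 and 67.4 CPM at 48 h and 69.4, 67.7 and 63.8 CPM at 0 h. The fall of Dvl1 was lost without 0 h replicate 3 (adjusted p = 0.0819), 48 h replicate 2 (0.0898) or 48 h replicate 3 (0.0932), and that of Dvl3 without 0 h replicate 2 (0.0558) or 0 h replicate 3 (0.0699). H3K4me3 did not pass at either gene. Dvl1 had 69.2 and 57.6 CPM of H3K4me3 at 48 h, against 50.02 and 58.4 CPM at 0 h (adjusted p = 0.0684), a difference that passed as a rise without 0 h replicate 2 (0.0272) or 48 h replicate 2 (3.29e-04).

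Most of the destruction complex did not pass in either assay. Apc, the scaffold, had 134, 130.4 and 136 CPM of RNA at 48 h and 126, 127 and 123 CPM at 0 h. The kinase genes Gsk3a, Gsk3b and Csnk1a1, and Axin1, had overlapping RNA groups, with log2 fold changes between -0.11 and 0.11 and adjusted p-values of 0.416 to 0.862.

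Axin2, the Axin gene that beta-catenin itself induces in many tissues, was the exception. Its RNA was 10.7, 8.32 and 7.14 CPM at 48 h, against 12.3, 12.5 and 13.5 CPM at 0 h, every 48 h library being lower (log2 -0.55 ± 0.17, adjusted p = 0.0346). Its H3K4me3 was 103 and 93.2 CPM at 48 h, against 84.2 and 80.5 CPM at 0 h, both 48 h libraries being higher (log2 0.25 ± 0.07, adjusted p = 0.0200). It was the only member called in opposite directions. Both calls were near the threshold. The RNA call was lost without 0 h replicate 1 (adjusted p = 0.0619), 2 (0.0826) or 3 (0.117) and without 48 h replicate 2 (0.133) or 3 (0.143). The H3K4me3 call was lost without 0 h replicate 1 (0.273) or 2 (0.193) and without 48 h replicate 1 (0.324), with DESeq2 (0.0921) and with total counts as the only scaling (0.0521).

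Ctnnb1, the gene of beta-catenin (chr9:120933400-120960507), was high and close in its replicates. Its RNA was 1150.1, 1143 and 1127 CPM at 48 h, against 897, 920.3 and 873 CPM at 0 h, a fold of 1.27 with no overlap (log2 0.35 ± 0.09, adjusted p = 0.0215). Its H3K4me3 was 120 and 105 CPM at 48 h, against 93.4 and 95.8 CPM at 0 h (log2 0.25 ± 0.07, adjusted p = 0.0219). The RNA call was lost without 0 h replicate 2 (adjusted p = 0.0588) or 3 (0.0851), without 48 h replicate 2 (0.0597) or 3 (0.0561), and with total counts as the only scaling (log2 0.17, 0.160). The H3K4me3 call was lost without 0 h replicate 1 (0.454) or 2 (0.0856), without 48 h replicate 1 (0.457) and with DESeq2 (0.0977). Under total counts the median of all genes moved from the -0.03 above to -0.20 and rises made up 26.8% of all RNA calls, against 50.2% with TMM. The other 6 RNA rises and all 10 falls passed under that scaling.

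Intracellular inhibitors held the largest falls. Dact1, which binds Dishevelled and can promote its degradation (chr12:71309884-71320107), had 16.9, 14.8 and 14.0 CPM at 48 h, against 62.7, 93.2 and 53.3 CPM at 0 h. The level at 48 h was 0.219 of that at 0 h (log2 -2.19 ± 0.20, adjusted p = 2.91e-04). H3K4me3 at Dact1 was 64.7 and 62.6 CPM at 48 h, against 88.8 and 91.8 CPM at 0 h (log2 -0.50 ± 0.07, adjusted p = 1.19e-06). The replicates lay close in the mark and the groups were far apart, and both falls passed under all alternatives run. The span of Dact1 overlaps 2700049A03Rik, which had a mean of 570 RNA reads a library, against 161 to 1886 for Dact1.

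Dact3 had 6.98, 4.68 and 6.18 CPM at 48 h, against 10.5, 10.7 and 9.18 CPM at 0 h (log2 -0.78 ± 0.18, adjusted p = 0.0133), a call lost without 48 h replicate 2 (0.0551) or 3 (0.0504). Nkd1, a Dishevelled-binding feedback inhibitor, had 6.59, 3.76 and 4.27 CPM at 48 h, against 11.1, 12.0 and 11.8 CPM at 0 h (log2 -1.27 ± 0.22, adjusted p = 0.00323). Its relative Nkd2 had 1.38, 0.960 and 1.48 CPM at 48 h, against 1.74, 2.27 and 2.37 CPM at 0 h, and did not pass (log2 -0.77 ± 0.30, adjusted p = 0.0770). H3K4me3 did not pass at Dact3 (24.4 and 25.1 CPM at 48 h, against 23.5 and 26.3 CPM at 0 h) or at Nkd1 (31.7 and 29.8 CPM, against 30.4 and 33.0 CPM), where the groups overlapped. For Dact3 and Nkd1 the log2 difference in the mark was -0.00393 ± 0.099 and -0.04 ± 0.09.

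Among the members, Axin2, Nkd1, Rnf43, Znrf3, Lgr5, Lef1 and Tcf7 are known as beta-catenin targets in other mouse tissues. In RNA, 3 of these 7 fell, 0 rose and 4 did not pass, among them Lef1 at no more than 0.997 CPM. Over all genes tested in RNA, 15.8% were called lower and 16% higher. In H3K4me3, 1 rose (Axin2), 1 fell (Rnf43) and 5 did not pass, against 6.35% called higher and 2.08% lower of all genes tested.

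Rnf220 encodes a ubiquitin ligase that stabilises beta-catenin. It had the largest H3K4me3 rise of the members, at 24.5 and 27.7 CPM at 48 h, against 15.4 and 9.64 CPM at 0 h (log2 1.03 ± 0.13, adjusted p = 7.95e-08). Its 0 h libraries lay far apart for their level, and leaving out 0 h replicate 1 gave a log2 fold of 1.42 and leaving out 0 h replicate 2 one of 0.76. The 48 h values lay above and the 0 h values below 17.5 CPM, the level that 95% of 5129 genes with no RNA count did not exceed. RNA of Rnf220 was 95.9, 103.5 and 96.4 CPM at 48 h, against 88.2, 91.9 and 97.2 CPM at 0 h, overlapping groups that did not pass (log2 0.09 ± 0.08, adjusted p = 0.393).

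**Figure D2:**
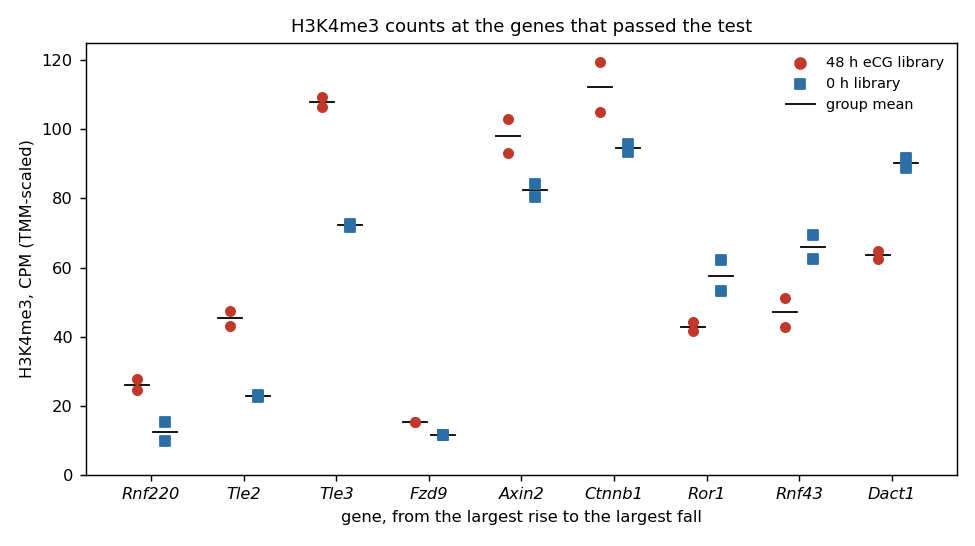
H3K4me3 count (CPM, TMM-scaled) of the 9 genes that passed the test, from the largest rise at the left to the largest fall at the right; red circles are the 2 libraries at 48 h, blue squares the 2 at 0 h and horizontal lines the group means. Tle2 had 47.5 and 43.1 CPM at 48 h and 23.1 and 22.4 CPM at 0 h, while Fzd9 stayed under 17.5 CPM in all libraries.

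Fzd9 had 15.2 and 15.4 CPM of H3K4me3 at 48 h, against 11.4 and 11.4 CPM at 0 h (log2 0.43 ± 0.13, adjusted p = 0.0360), below that level in all libraries. The call was lost without any of the libraries in turn (adjusted p of 0.488 and 0.158 without 0 h replicates 1 and 2, and 0.0891 and 0.0538 without 48 h replicates 1 and 2), with DESeq2 (0.193), with no filter (0.0568) and with total counts as the only scaling (0.136).

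Of the TCF factors, which bring beta-catenin to DNA, 2 of 4 fell in RNA and 2 did not pass. Tcf7l2 (chr19:55741797-55933659) had 21.0, 21.7 and 23.3 CPM at 48 h, against 37.3, 44.7 and 39.8 CPM at 0 h (log2 -0.89 ± 0.10, adjusted p = 6.21e-04). Tcf7l1, which acts mainly as a repressor, had 33.6, 39.7 and 33.9 CPM at 48 h, against 46.5, 59.5 and 71.8 CPM at 0 h (log2 -0.73 ± 0.15, adjusted p = 0.00832). Neither gene's groups overlapped, and both falls passed under all alternatives run. H3K4me3 did not pass at either. Tcf7l2 had 177 and 157 CPM of the mark at 48 h, against 169 and 174 CPM at 0 h (log2 -0.04 ± 0.07), and Tcf7l1 had 92.8 and 85.2 CPM at 48 h, against 85.1 and 94.1 CPM at 0 h (log2 -0.0066 ± 0.073).

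Tcf7 had 61.1, 73.1 and 63.6 CPM at 48 h, against 70.7, 64.5 and 73.3 CPM at 0 h, overlapping groups that did not pass (adjusted p = 0.587). Its span overlaps Skp1. Lef1, the factor most studied in lymphocytes and hair follicles, stood at no more than 0.997 CPM in any library. The ratio of Tcf7 to Tcf7l2 reads, which no scaling between libraries can change, was 2.91, 3.37 and 2.72 at 48 h, against 1.90, 1.44 and 1.84 at 0 h. For Tcf7 over Tcf7l1 it was 1.82, 1.84 and 1.88 at 48 h, against 1.52, 1.08 and 1.02 at 0 h. Both ratios restate the falls of Tcf7l2 and Tcf7l1 against a gene whose groups overlapped, and are no separate support. Such ratios compare read counts of genes of unequal length, so only their difference between groups can be read, and not which factor has more transcripts.

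Of the TLE corepressors, the mouse Groucho proteins that TCF factors recruit, 2 rose in RNA and 2 did not pass. Tle2 (chr10:81574739-81592581) had 153, 125 and 135 CPM of RNA at 48 h, against 97.6, 102 and 93.6 CPM at 0 h (log2 0.50 ± 0.09, adjusted p = 0.00530). Tle3 (chr9:61372326-61418497) had 59.8, 51.9 and 54.8 CPM at 48 h, against 44.0, 40.8 and 36.6 CPM at 0 h (log2 0.45 ± 0.10, adjusted p = 0.00939). H3K4me3 rose at both: Tle2 had 47.5 and 43.1 CPM at 48 h, against 23.1 and 22.4 CPM at 0 h (log2 0.99 ± 0.09, adjusted p = 1.13e-11). Tle3 had 109 and 106 CPM of the mark at 48 h, against 72.7 and 71.8 CPM at 0 h (log2 0.58 ± 0.07, adjusted p = 4.86e-08). All 4 rises passed under all alternatives run, and no groups overlapped.

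Tle1 and Tle4 were lower in every 48 h library and did not pass. Tle1 had 69.6, 68.1 and 72.7 CPM at 48 h, against 117, 80.9 and 80.0 CPM at 0 h (log2 -0.40 ± 0.14, adjusted p = 0.0633), 0 h replicate 1 standing far above the other libraries. Without 0 h replicate 1 the log2 fold change of Tle1 was -0.20 (adjusted p = 0.0982). Tle4 had 20.9, 26.8 and 25.1 CPM at 48 h, against 28.7, 31.5 and 29.9 CPM at 0 h (log2 -0.30 ± 0.11, adjusted p = 0.0658). With total counts as the only scaling, Tle1 (adjusted p = 0.0106), Tle4 (0.0149) and Nkd2 (0.0349) passed as falls. Under that scaling the median log2 fold change of all genes was itself -0.20. The ratio of Tle2 to Tle1 reads was 2.2, 1.84 and 1.86 at 48 h, against 0.833, 1.26 and 1.17 at 0 h. For Tle3 over Tle4 it was 2.87, 1.94 and 2.18 at 48 h, against 1.53, 1.30 and 1.23 at 0 h. Tle2 and Tle3 were higher and Tle1 and Tle4 lower in every 48 h library. The groups of these ratios therefore could not overlap, and the ratios are no separate support. The span of Tle2 overlaps Tle6, whose RNA was 34.8 ± 3.95 CPM at 48 h and 26.7 ± 3.42 CPM at 0 h (SD, n = 3 each; log2 0.38 ± 0.12 SE, adjusted p = 0.0443).

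**Figure D3:**
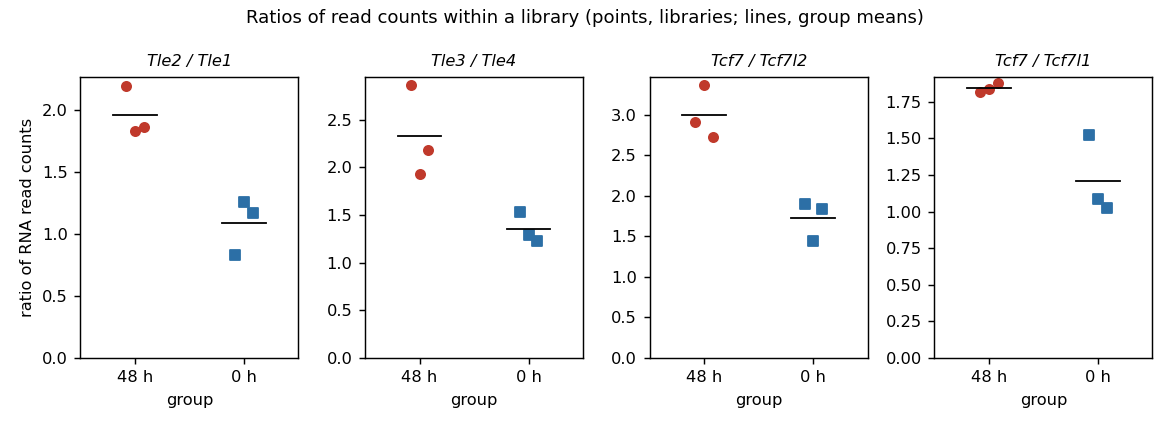
Ratio of the RNA read counts of 2 genes within a library for pairs of TLE and TCF genes; red circles are the 3 libraries at 48 h, blue squares the 3 at 0 h and horizontal lines the group means. In each panel every 48 h library lies above every 0 h library, for example 1.84 to 2.2 at 48 h and 0.833 to 1.26 at 0 h for Tle2 over Tle1. In the TLE panels this follows from the levels of the genes, Tle2 and Tle3 being higher and Tle1 and Tle4 lower in every 48 h library.

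Set side by side, 6 of the 17 members called in RNA were called in the same direction in H3K4me3 (Tle2, Tle3 and Ctnnb1 higher, Dact1, Rnf43 and Ror1 lower), 1 in the opposite direction (Axin2) and 10 did not pass in the mark. That is 35.3%, 5.88% and 58.8% of the 17, against 16.1%, 2.51% and 81.4% of the 4578 genes called in RNA among all genes tested in both assays. No minimum level of the mark was set for these shares. The 10 members that did not pass in the mark were the rises of Fzd1, Fzd2, Fzd4 and Lrp5 and the falls of Dvl1, Dvl3, Dact3, Nkd1, Tcf7l1 and Tcf7l2. Over the 40 members tested in both assays whose mean H3K4me3 was above 17.5 CPM, the log2 fold changes had a Pearson correlation of 0.51 and a Spearman correlation of 0.42, and 28 (70%) had the same sign. Over the 11455 genes of all that met the same conditions the correlations were 0.37 and 0.26, and 56.7% had the same sign. This is a description, with no test of the members against other genes, over genes that share libraries within each assay.

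**Figure D4:**
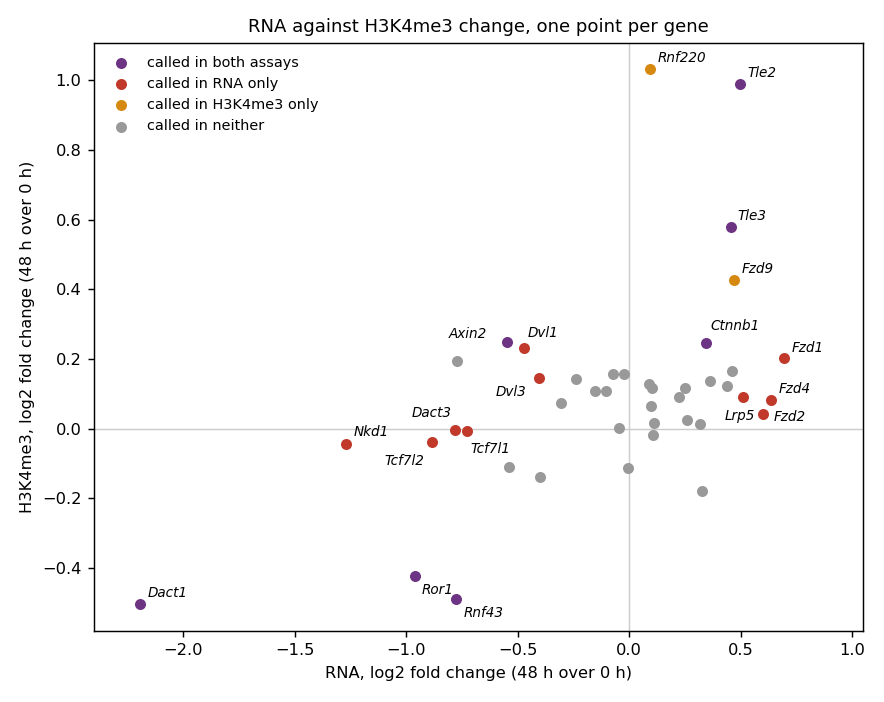
Log2 fold change (48 h over 0 h) of each tested member in RNA (horizontal axis) and H3K4me3 (vertical axis), coloured by the assay in which the gene passed the test; lines mark no change. Tle2 and Tle3 lie at the upper right, Dact1, Ror1 and Rnf43 at the lower left, Rnf220 is high in the mark alone at 1.03, and Nkd1, Tcf7l2, Tcf7l1 and Dact3 lie left of 0 near the horizontal line.

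The rest of the pathway is given by lists, to be read beside the 16% of all genes called higher and 15.8% called lower in RNA. Of 19 genes for Wnt ligands 9 were tested in RNA, of which 2 rose and 1 fell. The risers were Wnt4 (75.2 ± 14.7 CPM at 48 h and 30.9 ± 3.70 CPM at 0 h, SD, n = 3 each; log2 1.28 ± 0.15 SE, adjusted p = 7.12e-04) and Wnt10b (12.5 ± 1.90 CPM at 48 h and 0.233 ± 0.055 CPM at 0 h, SD, n = 3 each; log2 5.68 ± 0.27 SE, adjusted p = 2.20e-05). In H3K4me3 Wnt4 rose by 0.35 on the log2 scale, and Wnt10b by 0.89, though its 8.02 CPM at 48 h and 4.38 CPM at 0 h both lay below 17.5 CPM. The R-spondins, ligands of the Lgr receptors, had 2 of 4 genes tested and 0 called. Of 14 secreted antagonists and their co-receptors 7 were tested, 4 rose and 1 fell, the largest rise being that of Sfrp4 (1084 ± 336 CPM at 48 h and 10.6 ± 4.61 CPM at 0 h, SD, n = 3 each; log2 6.68 ± 0.40 SE, adjusted p = 5.86e-05) and the next that of Sfrp1 (log2 1.02). Sfrp1 and Sfrp4 encode frizzled-like proteins that bind Wnt ligands outside the cell.

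Of 43 other regulators 42 were tested, 6 rose and 6 fell. The largest rises were those of Prickle2, of planar polarity (log2 1.70), and Dact2 (26.6 ± 1.22 CPM at 48 h and 9.39 ± 3.74 CPM at 0 h, SD, n = 3 each; log2 1.52). Dact2 also rose in H3K4me3 (log2 0.94), so of the Dact genes Dact1 and Dact3 were lower and Dact2 higher in RNA. The largest falls were those of Prickle1 (log2 -0.91) and Lgr6 (log2 -0.71). Tle5, a short relative of the TLE corepressors that was singled out after its values were seen, rose in RNA (348 ± 23.8 CPM at 48 h and 197 ± 31.6 CPM at 0 h, SD, n = 3 each; log2 0.82) and in H3K4me3 (log2 0.60). Of 32 genes known as beta-catenin targets outside the members 27 were tested, 4 rose and 4 fell, against 16% and 15.8% of all genes tested. Nrcam (log2 3.88) and the aromatase gene Cyp19a1 (log2 1.98) rose most, and Myc (36.5 ± 10.1 CPM at 48 h and 81.6 ± 22.2 CPM at 0 h, SD, n = 3 each; log2 -1.16) and Id2 (log2 -1.03) fell most. The median log2 fold change over the tested targets was -0.10, against -0.03 over all genes.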

How the data were processed

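The authors deposited 1 table an assay, with unnormalised whole-number counts for each Entrez ID, whose totals differ between libraries (12013849 to 26343971 for RNA, 11989769 to 17968033 for H3K4me3). Per the submitters' processing notes, FastQC 0.11.5, Picard, STAR, kallisto and sleuth were used for RNA and Trimmomatic, Bowtie2 2.2.9, MACS2 2.2 and ChIPseeker 1.18.0 for ChIP-seq, on mm10. The sources used here name no counting program, strand setting or counted H3K4me3 window. The input DNA library was not used.

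H3K4me3 columns were assigned to groups by the table's class line, and their replicate numbers are those of the columns. The 48 h and 0 h libraries of an assay were compared with edgeR 4.0.16 (R 4.3.3; quasi-likelihood test, TMM scaling, filterByExpr), with Benjamini-Hochberg adjustment over all genes tested. SE values were derived from the test statistic. CPM were computed here. The tests were run on simulated counts in which all genes shared 1 level of variation, a simpler setting than these data. Alternatives were the size factors and test of DESeq2 1.42.0, total counts, no filter, each library left out in turn and a replicate block. Symbols, gene spans and starts came from RefSeq tables of GRCm38.p6. Spans without exons allow no length-corrected levels, so levels of different genes are not ranked. Values were given per library for members called in either assay. For the other lists the rule allowed up to 2 rises and 2 falls, the largest among those called and averaging 5 CPM or more over all libraries. Members and lists were chosen with earlier results of these data known. Between libraries of a group the chi-square per degree of freedom was 1.69 or more, so none was a copy.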

Additional observations from a re-analysis of the deposited data

How the results depend on the processing

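Of 17 RNA calls among the 44 genes, 11 passed under all 11 alternatives, as did 4 of 9 H3K4me3 calls under all 9. RNA calls over all genes were 2882 to 5345 and falls among the members 6 to 11 when a library was left out, against 4585 and 10. H3K4me3 calls over all genes, 2062 with all libraries, were 282 to 2764 with a library left out, 865 with DESeq2 and 1280 with the replicate block, and rises among the members, 6 with all libraries, were 3 to 7, 3 and 3. With total counts as the only scaling, 5 members fell in H3K4me3 in place of 3, Wls and Tle1 being added, and 52.3% of H3K4me3 calls were higher in place of 75.4%. Directions that turned were all of values that had not passed: under total counts Rnf220 RNA (-0.077) and Fzd2 H3K4me3 (-0.0113), and, with a library left out, the H3K4me3 log2 fold of Fzd2 (-0.051 to 0.11), Dact3 (-0.11 to 0.072), Nkd1 (-0.12 to 0.0123), Ryk (-0.068 to 0.23, passing at 0.23), Tcf7l1 (-0.10 to 0.065) and Tcf7l2 (-0.14 to 0.048). Of members called nowhere, 8 of 17 in RNA and 7 of 22 in H3K4me3 changed sign somewhere. The causes were not tested. Same-numbered libraries did not deviate together (correlations of -0.22, -0.15 and -0.15 in RNA and -0.0094 in H3K4me3), and no RNA library correlated best with its own number. These are correlations of deviations from group means, which depend on one another within a group. With 2 H3K4me3 libraries a group, they differ between pairings only in sign. They therefore cannot exclude that same-numbered libraries were collected together. With the replicate block, RNA calls were 3312, with 6 rises and 9 falls among the members, Axin2 (0.0694) and Ctnnb1 (0.0711) not passing, and in H3K4me3 Fzd9, Axin2 and Ctnnb1 did not pass. With 2 H3K4me3 libraries a group, a library left out leaves a lone sample that is assumed to vary like the others. Genes under about 1 CPM (Fzd10, Lef1) are limited by depth.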
